A study of Mus musculus with 2 samples.

Results

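The genes described here encode titin (Ttn), nebulin and its relatives (Neb, Nebl, Nrap), the cytoskeletal linker Obsl1 and the 3 myomesins (Myom1, Myom2, Myom3), the giant and M-band proteins of the sarcomere. They were chosen by gene name, and every transcript model assigned to one of these 8 genes was taken from both libraries. Reads were found for 7 of the 8, out of 15371 annotated genes seen in either library. Replicate 1 had 1349298 reads in all, of which the 7 genes took 3349 (0.248%), and replicate 2 had 1359923, of which they took 3867 (0.284%). These reads lay in 502 models in replicate 1 and 549 in replicate 2, and 309 and 353 of these models had 1 read. Each model is a chain of exons that long reads were matched to.

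The libraries were made from gastrocnemius, the large calf muscle, of female B6CASTF1/J mice, the first-generation cross of B6 and Cast, aged 2 months. Both belong to 1 group with no treatment named: replicate 1 is animal 3, replicate 2 is animal 4, and each started from 2 µg of RNA. The donor identifier is the same for both, and that 2 animals were used is taken from the animal numbers. Every test below compares the reads of these 2 libraries, not animals as a population, and intervals, limits and p-values cover counting error only.

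The sarcomere is the repeating unit of muscle, bounded by Z-discs, with thick myosin filaments held together in its middle by the M-band. Titin is a molecular spring that runs from the Z-disc to the M-band, and nebulin lies along the thin actin filament from the Z-disc outward. Myomesins cross-link neighbouring thick filaments at the M-band, where they also bind the end of titin.

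The marker genes of the 2 libraries were not alike. Slow fibre markers summed to 1639 CPM (reads of a gene per megaread of the library) in replicate 1 and 9546 in replicate 2, with 9 of 10 higher in replicate 2 and 0 lower. Fast fibre markers summed to 207648 and 202388 CPM, above the slow marker sum in both libraries, with 4 of 10 higher and 6 lower in replicate 2. Atp2a1 alone gave 149332 and 143096 CPM of these sums. Adipocyte markers went from 1127 to 107 CPM and nerve markers from 629 to 89.7 CPM, with 6 of 6 and 4 of 5 tested lower in replicate 2. Smooth muscle markers went from 221 to 89.0 CPM, with 4 of 5 lower, and tendon markers from 226 to 440 CPM, with 2 of 4 higher. Of the endothelial, fibroblast and macrophage markers, 1 of 5 was lower, 1 of 4 higher and 1 of 2 tested lower. In bulk tissue, fewer cells of a type and less RNA per cell cannot be told apart. The part of these marker differences in the results below was not tested.

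Myom2, the myomesin of fast fibres, had the most reads of the 8 genes, and Nebl had none. In CPM, Myom2 stood at 851 in replicate 1 and 1038 in replicate 2, Myom1 at 588 and 666, and Nrap at 578 and 592. Ttn followed with 282 and 346 CPM and Neb with 145 and 165. Myom3 had 25.2 and 22.8 CPM and Obsl1 12.6 and 13.2. The order of the 7 genes was the same in both libraries, and no gene's range over the libraries overlapped that of its neighbour except Nrap (578 to 592) and Myom1 (588 to 666). Each long read stands for 1 cDNA molecule, but long transcripts are read in part. Read counts then need not grow with transcript length, and which scale is closer to transcript number was not tested. Levels were also given per kilobase of the longest coding transcript, which lowers Ttn and Neb the most. On that scale Myom2 stood at 168 and 204 CPM per kilobase, Nrap at 105 and 108, and Myom1 at 104 and 118. Neb then stood at 6.46 and 7.36, Myom3 at 4.52 and 4.09, Ttn at 2.64 and 3.24, and Obsl1 at 2.22 and 2.33 CPM per kilobase.

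**Figure D1:**
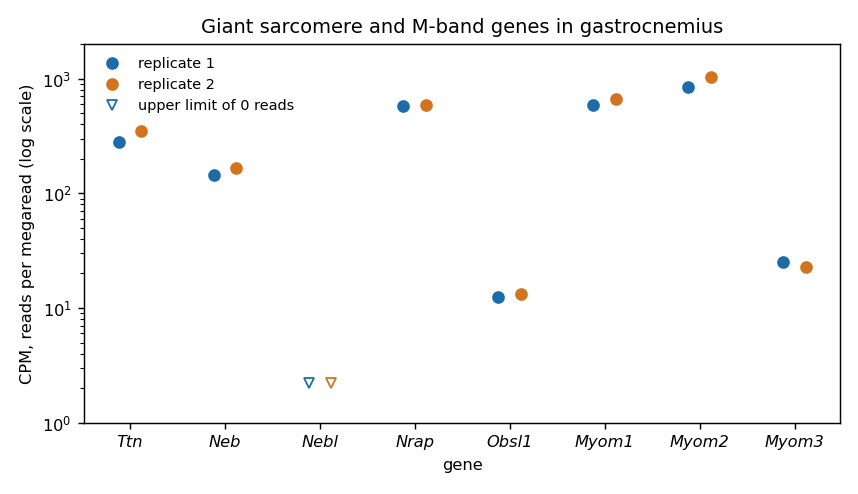
CPM (vertical axis, log scale) of each of the 8 genes in replicate 1 and replicate 2. Each point is 1 library, and the open triangles for Nebl mark the limit that 0 reads allow, 2.22 and 2.21 CPM. Myom2 is the highest in both libraries, and Obsl1 is the lowest gene with reads.

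Between the libraries, 2 of the 7 genes with reads differed, and both were higher in replicate 2. Over all 9341 annotated genes with at least 10 reads summed, Fisher's exact test with Benjamini-Hochberg adjustment called 7.82% in either direction and 4.25% as higher in replicate 2. Myom2 had 1148 reads in replicate 1 and 1411 in replicate 2, which was 1.22-fold higher (95% interval 1.13 to 1.32; adjusted p = 2.85e-05 by Fisher's exact test). Ttn had 381 and 471 reads, 1.23-fold higher (1.07 to 1.40; adjusted p = 0.0429, exact test), a call that was lost when genes with fewer than 10 reads entered the test (adjusted p = 0.0704). Myom1 had 793 and 906 reads (1.13-fold, 1.03 to 1.25) and did not pass, at an adjusted p of 0.100 by the same exact test. Neb had 196 and 225 reads (1.14-fold, 0.941 to 1.38) and Nrap 780 and 805 (1.02-fold, 0.928 to 1.13), with adjusted p = 0.556 and 0.916 by the exact test. Obsl1, with 17 and 18 reads, and Myom3, with 34 and 31, were too thinly read to show a difference of this size, as their fold intervals ran from 0.548 to 2.01 and from 0.559 to 1.46. The median log2 ratio of the 7 genes was 0.18, against -0.01 over all genes tested. With edgeR's exact test at a set dispersion of 0.01, which allows for variation between animals, 0 of the 7 genes were called and 0 had an unadjusted p under 0.05, while 1.85% of all genes tested were called. Neither call remained under that test.

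The sarcomere partners of these proteins moved in both directions. Of 15 tested genes whose products bind or act with titin, 1 was higher and 7 were lower in replicate 2, with a median log2 ratio of -0.30. Their most abundant members were Actn3 (8082 and 6278 CPM), the alpha-actinin of fast fibres, Tcap (4852 and 3944 CPM), which caps titin at the Z-disc, and Ankrd23 (3078 and 3121 CPM). Both Actn3 and Tcap were lower in replicate 2, and the largest called differences were those of Sqstm1 (-0.69 in log2), Trim63 (-0.68) and Fhl1 (-0.58). Of 17 partners of nebulin and the thin filament, 1 was higher and 2 were lower. Xirp2 was higher by 0.60 in log2, and Klhl41 (-0.59) and Myot (-0.20) were lower, while the capping protein gene Capza2 (522 and 513 CPM) and the actin-binding Cfl2 (426 and 432 CPM) were not called. Of 11 partners in the M-band and thick filament, 3 were higher and 2 lower, with a median of 0.11. Ckm, the creatine kinase that docks at the M-band, was higher at 45061 and 48973 CPM. Mybph (17.8 and 80.2 CPM) and the chaperone gene Unc45b (256 and 333 CPM) were the others that were higher, and the myosin-binding Mybpc1 (2822 and 2302 CPM) and Mybpc2 (4216 and 3898 CPM) were lower. Of 14 genes that mark fibre type, 10 were higher and 3 lower. Among them, Myh7, the slow myosin heavy chain, stood at 313 and 3246 CPM, Tnnt1 at 228 and 1911 and Tnnc1 at 150 and 996. The fast genes Atp2a1 (149332 and 143096 CPM), Tnnc2 (16566 and 18932) and Myh4 (9418 and 11999) were the most abundant.

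Most Myom1 and Myom2 reads lay in models from start codon to stop codon, and no Ttn or Neb read did. Model ends are the deposited ones, so how far each read itself reached was not measured. A model was counted when its span on the genome ran from the gene's start codon to its stop codon. It could still skip an exon that holds a codon. The measure used was the share of a gene's reads in such models. For Myom2 this was 72.6% in replicate 1 and 75.3% in replicate 2, for Myom1 67.5% and 61.6%, and for Nrap 44.2% and 47.2%. These 3 genes have longest coding transcripts of 5075, 5648 and 5501 bases. Over the 445 genes of 4000 to 6000 bases with at least 100 reads, the median share was 85.3% (quartiles 70.1% and 92.7%), so Myom2 lay within the middle range and Myom1 and Nrap, at 64.3% and 45.7% over both libraries, lay below the lower quartile. Myom3, of 5575 bases, had 10 of 34 and 7 of 31 such reads, and Obsl1, of 5679 bases, 3 of 17 and 2 of 18. No read of Ttn or Neb lay in a model from start to stop codon. That allows a share of up to 0.787% and 0.637% for Ttn and 1.53% and 1.33% for Neb. Across the 19 genes of at least 10000 bases, Ttn and Neb among them, the median share was 2% (quartiles 0.114% and 74.0%).

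**Figure D2:**
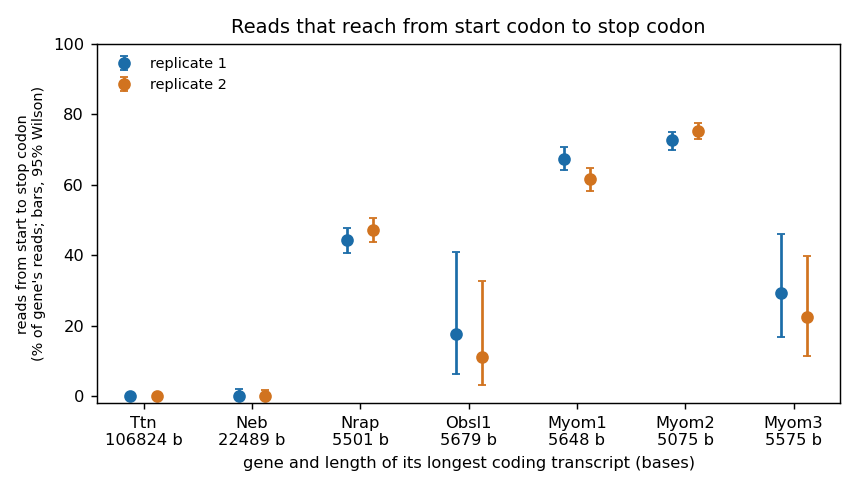
Share of each gene's reads (vertical axis, percent) in models that run from start codon to stop codon, with 95% Wilson intervals, for replicate 1 and replicate 2. Ttn and Neb are at 0 in both libraries, and Myom2 is the highest at 72.6% and 75.3%.

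Ttn lies on the minus strand at chr2:76703980-76982547 (mm10), and its transcript Ttn-203 has 347 exons and 106824 bases, of which 105639 are coding. The longest Ttn models had 12929 bases in replicate 1 and 17912 in replicate 2, and those that ended in the last exon reached back over at most 11.9% and 16.6% of the transcript. Of reads in models of at least 10000 bases, Ttn had 6 and 13 and Neb 4 and 7, out of 1224 and 1890 in the whole libraries. The last 6 exons, 342 to 347, which encode part of the M-band end of titin, carried 186 to 287 reads in replicate 1 and 265 to 400 in replicate 2. The first 45 exons, which encode its Z-disc end and the start of the spring, carried 3 to 23 and 1 to 12 reads. In the 296 exons between, 177 had no read in replicate 1 and 142 had none in replicate 2. They carried 0 to 62 and 0 to 308 reads, and the highest value in each library was that of exon 341, which adjoins exon 342. Apart from exon 341, these exons encode most of the spring and the part bound to the thick filament. The median over all 296 was 0 and 1 read per exon. The start codon was covered by 20 of 381 reads and 5 of 471, and the stop codon by 245 and 351.

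Lengths of Ttn models could not be compared between the libraries as they stand. The most frequent Ttn structure had 6 exons and the same introns in both, with 130 reads in replicate 1 and 204 in replicate 2. Its deposited first exon was 150 bases long in replicate 1 and 3318 in replicate 2, so the model length was 2806 and 5974 bases. The median length over all Ttn reads took the same values, 2806 and 5974 bases. A model carries one pair of ends for all its reads, and read counts over the exons next to such an edge follow it.

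**Figure D3:**
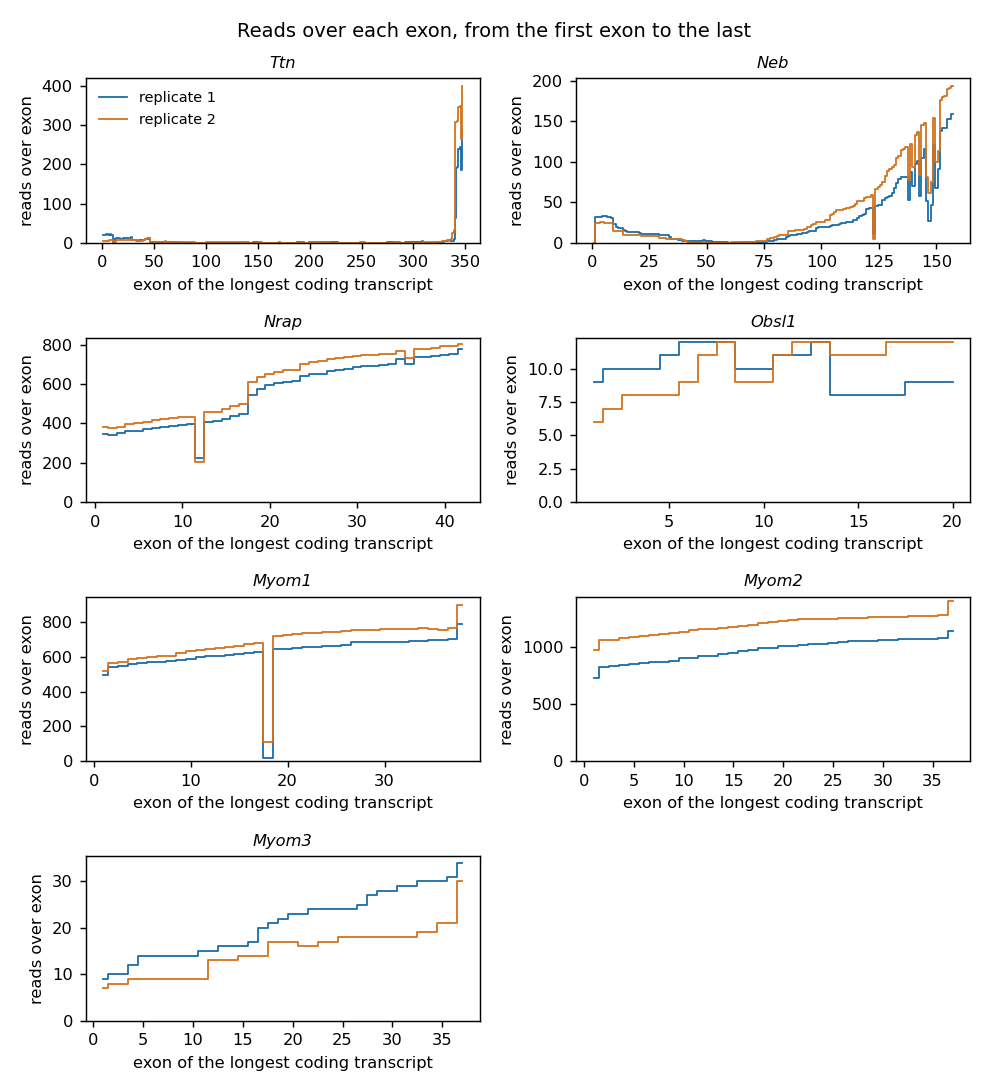
Reads whose model overlaps each exon (vertical axis) by exon number of the longest coding transcript, first exon at the left, for the 7 genes with reads in both libraries. Ttn and Neb rise at both ends and lie near 0 between them, and Nrap steps up at exon 18. Myom1 drops at exon 18 to 18 reads in replicate 1 and 110 in replicate 2. Of these, 2 and 37 were in models whose deposited start lies in exon 18.

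Most Ttn reads ended at the annotated end of the long transcripts, 287 (75.3%) in replicate 1 and 400 (84.9%) in replicate 2. A second end at chr2:76913944, that of the short annotated transcript Ttn-202, took 46 reads (12.1%, 95% Wilson interval 9.17% to 15.7%) and 46 reads (9.77%, 7.40% to 12.8%). This is the early end known from the novex-3 form of titin, which stops in the I-band. Of its reads 36 and 34 lay in single-exon models, so few of them show a splice junction to the rest of titin. Exon 45 of Ttn-203 carried 11 and 12 reads, and exon 46 carried 0 in both libraries. Which transcript the reads over the first 45 exons come from was not tested. The other early ends with at least 3 reads over both libraries had 3 to 5 reads in replicate 1 and 0 to 3 in replicate 2, and 2 of the 5 were annotated ends, of Ttn-207 and Ttn-215. Among spliced reads, the last exon of the long form was the terminal exon in 243 of 298 (81.5%) and in 350 of 384 (91.1%), a difference with adjusted p = 0.0336 by Fisher's exact test. That was 1 of the 2 terminal exons in these genes that were alternative, which here means used by 5% to 95% of spliced reads in genes with at least 20 in each library, and 1.18% of all 1191 such terminal exons were called. When models resting on a single read were left out, the share rose above 95% and the exon was no longer tested, so the difference could not be tested without them.

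The exon before the last, exon 346 of Ttn-203 at chr2:76705670-76705972 on the minus strand, was the alternative internal exon of titin. It is known as Mex5 and encodes part of the M-band end of titin. An internal exon was counted as held in a model that has it and as skipped in a model with a junction across it, over at least 20 such informative reads in each library. Exon 346 was held by 185 of 244 informative reads (75.8%, 70.1% to 80.8%) in replicate 1 and by 262 of 348 (75.3%, 70.5% to 79.5%) in replicate 2. The 2 shares lay within each other's intervals (adjusted p = 1 by Fisher's exact test). The sequence is shown because it is the stretch that tells the M-band ends of titin apart. Its first 288 of 303 bases are in capitals after the last 12 of exon 345, from the GENCODE M21 transcript.

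Ttn exon 346: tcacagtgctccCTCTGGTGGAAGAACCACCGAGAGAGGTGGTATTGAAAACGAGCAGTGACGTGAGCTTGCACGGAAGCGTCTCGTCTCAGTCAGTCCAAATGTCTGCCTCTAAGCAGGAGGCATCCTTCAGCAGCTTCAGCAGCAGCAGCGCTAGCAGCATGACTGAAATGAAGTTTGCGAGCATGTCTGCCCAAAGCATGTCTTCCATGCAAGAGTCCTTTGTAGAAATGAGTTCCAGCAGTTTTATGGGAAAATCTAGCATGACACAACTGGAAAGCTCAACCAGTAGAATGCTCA

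Neb lies on the minus strand at chr2:52136647-52378474, and its transcript Neb-202 has 157 exons and 22489 bases. The longest Neb models had 13232 and 14720 bases, and 38.7% of its reads lay in exon structures seen in both libraries, against 96.2% for Myom2. Of its 157 exons, 6 had no read in replicate 1 and 19 had none in replicate 2, and reads thinned out from the last exon, with 159 and 193, towards the middle of the gene. The start codon was covered by 32 of 196 reads and 24 of 225, and the stop codon by 152 and 193. Reads on the 5' side that ended early gathered at chr2:52323697, with 7 and 9 reads, and at chr2:52310529, with 2 and 5, neither of them an annotated end. The main 3' end took 158 reads (80.6%) and 193 (85.8%). Its last exon was the terminal exon of 80.9% and 85.7% of spliced reads (adjusted p = 1, exact test).

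Of the 18 alternative internal exons in these genes, 14 were in Neb, 2 in Nrap, 1 in Myom1 and 1 in Ttn, and all 18 had lengths that are multiples of 3. Over all 1973 alternative exons, 0.405% were called, and among the 18 it was 1, in Myom1. Without adjustment, 8 of the 18 and 172 of the 1973 had p under 0.05 by Fisher's exact test.

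**Figure D4:**
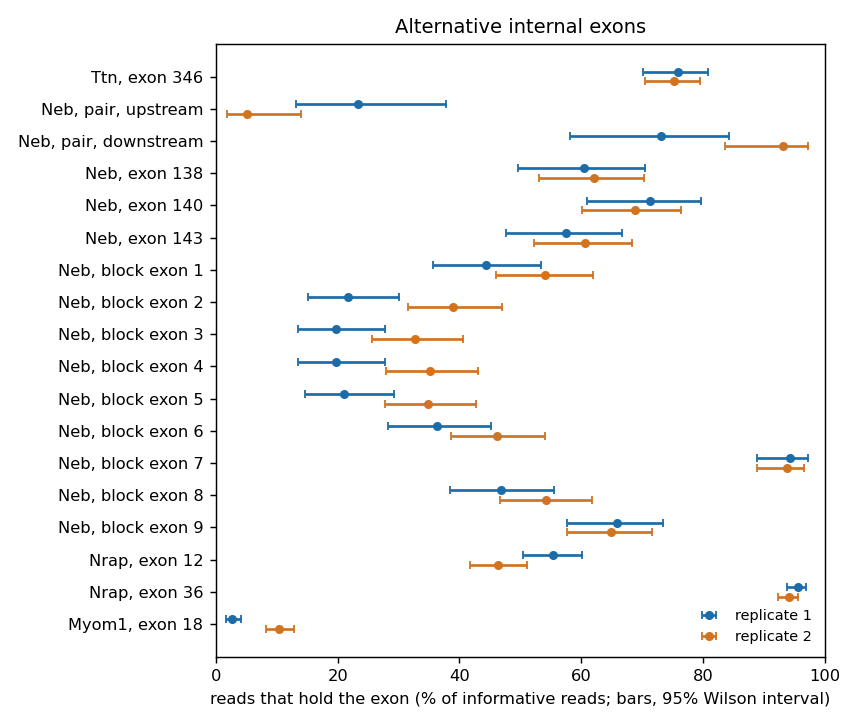
Share of informative reads that hold each of the 18 alternative internal exons (horizontal axis, percent), with 95% Wilson intervals, in replicate 1 and replicate 2. The intervals lie apart for Myom1 exon 18, at 2.56% and 10.3%, and for Neb block exons 2 and 4, which were not called after adjustment.

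Near its 3' end, in the part that encodes the Z-disc end of nebulin, Neb held a block of 9 consecutive alternative exons of 93 bases each. Numbered from 5' to 3', the 7th of them, exon 149 of Neb-202 (chr2:52151364-52151456), was held by nearly all reads, 94.4% in replicate 1 and 93.8% in replicate 2. The 1st, exon 146, was held by 44.3% and 54.1%, the 6th, exon 148, by 36.4% and 46.2%, the 8th, exon 150, by 46.9% and 54.3%, and the last, exon 151, by 65.9% and 64.9%. The 2nd to the 5th exon were the least held, with 19.7% to 21.7% in replicate 1 and 32.7% to 38.9% in replicate 2. The 4th, at chr2:52154570-52154662, is not an exon of GENCODE M21 and was held by 23 of 117 and 53 of 151 informative reads. Of the 9 exons 7 were held more often in replicate 2, none of them called. The largest difference was that of the 2nd exon, exon 147, with 25 of 115 (21.7%) against 58 of 149 (38.9%) reads, adjusted p = 0.246 by Fisher's exact test. Reads that span the block are shared by the 9 exons, so these are not 9 separate findings.

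The exons of the block are near copies of each other. Among the 7 whose sequence stands in the annotated coding transcripts used here, pairs of exons were identical at 76.3% to 87.1% of bases, with a median of 81.7%. Exon 147, held by 21.7% and 38.9% of informative reads, and exon 149, the most held of the block, are shown because they were held to different extents while 81 of their 93 bases are the same. Capitals mark the 12 bases that differ.

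Neb exon 147: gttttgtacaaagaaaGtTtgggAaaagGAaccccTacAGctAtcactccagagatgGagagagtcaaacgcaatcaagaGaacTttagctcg
Neb exon 149: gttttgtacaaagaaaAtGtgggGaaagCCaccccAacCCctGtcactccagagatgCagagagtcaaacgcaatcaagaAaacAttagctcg

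Placement of reads among the near copies in this block was not tested. Single reads that span all 9 exons give the combinations in one molecule, as the deposited models have them. There were 115 such reads in replicate 1 and 148 in replicate 2, in 25 combinations, of which 16 occurred in both. The most frequent held the 7th exon alone, with 38 reads (33.0%, 25.1% to 42.1%) and 49 reads (33.1%, 26.0% to 41.0%). Next came the full block of 9 exons, with 18 reads (15.7%, 10.1% to 23.4%) and 42 reads (28.4%, 21.7% to 36.1%). The 7th exon with the 9th followed with 15 and 8 reads. A total of 2 and 9 reads skipped all 9. Grouped by number, 0 to 2 exons were held in 55.7% and 45.9% of reads, 3 to 6 in 24.3% and 19.6%, and 7 to 9 in 20.0% (13.7% to 28.2%) and 34.5% (27.3% to 42.4%). The 2 most frequent combinations thus lay near the short end and at the long end. In replicate 1, however, more reads held 3 to 6 exons than 7 to 9. The full block adds 837 bases to a molecule that skips it. The median was 2 exons held in replicate 1 and 3 in replicate 2. Differences between the libraries in these combinations were not tested, and slow fibre markers were higher in replicate 2 as given above.

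**Figure D5:**
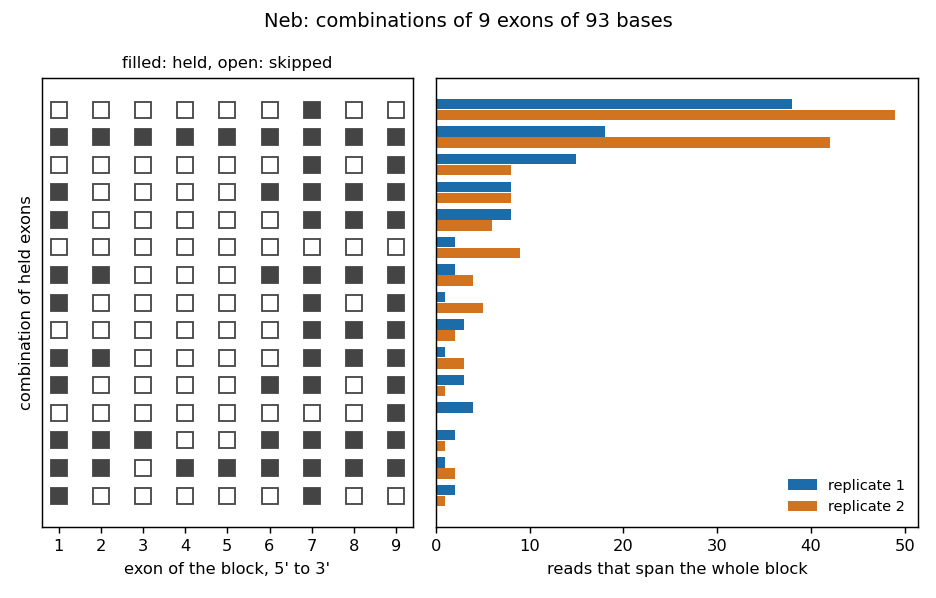
Combinations of the 9 Neb exons of 93 bases (left, filled squares held, open squares skipped, 5' to 3') and the number of reads that span the block with that combination (right), in replicate 1 and replicate 2, for combinations with at least 3 reads over both. The combination with the 7th exon alone has 38 and 49 reads, and the full block 18 and 42.

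Upstream of the block, exons 138, 140 and 143 of Neb-202 were each held by 57.4% to 71.3% of reads in both libraries. Exon 138 was held by 60.5% and 62.1%, exon 140 by 71.3% and 68.9%, and exon 143 by 57.4% and 60.6%, each with adjusted p = 1 by Fisher's exact test. Further upstream lay a pair of exons of 105 bases that were used in place of each other. The upstream exon, exon 123 of Neb-202 at chr2:52186012-52186116, was the one held in 10 of 43 reads of replicate 1 and in 3 of 58 of replicate 2. The downstream exon, at chr2:52185271-52185375 and annotated in Neb-210, was the one held in 30 and 54. No read held both, and 3 and 1 held neither, so 93.0% and 98.3% of reads held exactly one of the pair. By the informative reads of each exon, the downstream exon was held by 73.2% and 93.1% and the upstream one by 23.3% and 5.08%, with adjusted p = 0.300 and 0.346 by Fisher's exact test. They take the same place in the transcript, but the 2 exons have 40 of 105 bases in common when laid side by side. They are shown because a molecule carries one or the other, with the 65 bases that differ in capitals.

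Neb pair, upstream exon: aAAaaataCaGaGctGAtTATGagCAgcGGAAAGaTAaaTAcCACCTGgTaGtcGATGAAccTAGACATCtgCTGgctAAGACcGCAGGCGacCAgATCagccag
Neb pair, downstream exon: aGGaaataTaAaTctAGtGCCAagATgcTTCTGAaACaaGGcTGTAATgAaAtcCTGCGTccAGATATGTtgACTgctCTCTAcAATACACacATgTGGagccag

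Nebl, at chr2:17343909-17731464, encodes nebulette, the relative of nebulin known from heart muscle, and had 0 reads in both libraries, which allows up to 2.22 and 2.21 CPM. Of 5 heart muscle markers, Mybpc3, Nppa and Tnni3 were at 0 in both as well, while Myh6 had 12 and 13 reads (8.89 and 9.56 CPM) and Tnnt2 had 0 and 1. Within the nebulin family, Nrap held 79.9% and 78.2% of the reads, Neb 20.1% (17.7% to 22.7%) and 21.8% (19.4% to 24.5%), and Nebl 0% with a limit of 0.307% and 0.291%. The split depends on the scale: divided by transcript length, the mean Neb share was 6.10%. Over annotated models alone it was 0.773%, from 3 Neb reads, all in replicate 1, against 191 and 209 Nrap reads. No Neb model spanned the long transcript, so that value cannot measure the split.

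Nrap, the nebulin-related anchoring protein of developing myofibrils and muscle ends, lies on the minus strand at chr19:56320035-56390037, with 42 exons in Nrap-202. The models of 778 of 780 and 805 of 805 reads ended in the last exon or within 100 bases of it. Model starts were more spread. Exon 1 carried 346 and 380 reads, and 97 reads (12.4%) and 115 reads (14.3%) were in models that start in exon 18. No annotated transcript of GENCODE M21 starts in that exon, and the model of 25 exons that begins there was among the 3 most frequent Nrap structures, with 92 and 100 reads. Whether these are shortened reads or transcripts that begin there was not tested.

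Exon 12 of Nrap, at chr19:56374364-56374468, was used close to evenly, and it is the exon known to be held in skeletal muscle and left out in heart. It was held by 221 of 399 informative reads (55.4%, 50.5% to 60.2%) in replicate 1 and by 200 of 432 (46.3%, 41.6% to 51.0%) in replicate 2. The difference of -9.09 points was not called (adjusted p = 0.300 by Fisher's exact test). Exon 36 was held by 95.6% and 94.2%. The 2 annotated full structures differ by exon 12, with 104 and 102 reads for Nrap-202, which holds it, and 87 and 105 for Nrap-201, which does not. The sequence of exon 12 is given in capitals with 12 bases of exon 11 and 12 of exon 13, since it is what separates the most frequent Nrap molecules.

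Nrap exon 12: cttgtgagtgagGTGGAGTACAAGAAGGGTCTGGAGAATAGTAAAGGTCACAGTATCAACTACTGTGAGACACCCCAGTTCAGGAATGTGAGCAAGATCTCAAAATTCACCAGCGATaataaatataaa

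The other variable place in Nrap was the acceptor of exon 6. A version of exon 6 longer by 3 bases, ending at chr19:56382367 in place of 56382364 on the genome, was used by 132 of 363 reads (36.4%, 31.6% to 41.4%) and 153 of 403 (38.0%, 33.4% to 42.8%). No exon of GENCODE M21 ends at that position. Its use was similar in both libraries, and exon 12 was held by 54.5% of reads with the short and 56.8% with the long version in replicate 1, and by 48.4% and 43.8% in replicate 2. The 4 combinations of these choices made up the most frequent full structures, with 48 to 104 reads each in replicate 1 and 55 to 105 in replicate 2.

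Obsl1, at chr1:75479310-75506452 on the minus strand, encodes a protein that binds titin and myomesin at the M-band. All but 1 of its 17 and 18 reads ended at 3 annotated places. The end of the long form Obsl1-202 took 9 and 12 reads, that of Obsl1-211 took 5 and 2, and that of Obsl1-203 took 3 and 3. Its 26 exon structures held few reads each, at most 3 over both libraries, and 6 of them were seen in both. With so few reads, no exon of Obsl1 reached the minimum for the exon test.

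The 3 myomesin genes split their reads in nearly the same way in both libraries. Myom2 held 58.1% (55.9% to 60.3%) of myomesin reads in replicate 1 and 60.1% (58.1% to 62.1%) in replicate 2, Myom1 40.2% and 38.6%, and Myom3, the myomesin known from slow and intermediate fibres, 1.72% (1.23% to 2.40%) and 1.32% (0.932% to 1.87%). The share of Myom3 was not higher in replicate 2, the library with more slow fibre marker reads, though its intervals in the 2 libraries overlap.

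Myom1 lies on the plus strand at chr17:71002633-71126856. Its most frequent structure was the annotated Myom1-203, of 37 exons, with 450 reads in replicate 1 and 436 in replicate 2. Myom1-202 has 1 exon more, exon 18 at chr17:71082203-71082496, and had 11 and 46 reads. That exon encodes the EH segment, an elastic stretch in the middle of myomesin 1 known from embryonic heart and from slow muscle. It was held by 16 of 624 informative reads (2.56%, 1.58% to 4.12%) in replicate 1 and by 70 of 678 (10.3%, 8.25% to 12.8%) in replicate 2. Replicate 2 was thus higher by 7.76 points, and the intervals lay apart (adjusted p = 3.59e-06 by Fisher's exact test). The call held under each of the 4 other settings tried for exons, with differences of 7.17 to 7.89 points. Among reads in models from start to stop codon, a choice added after the values were seen, 12 of 535 (2.24%) and 52 of 558 (9.32%) held it. Slow fibre markers summed to 1639 and 9546 CPM in the same libraries, and their part in this difference was not tested. The exon is printed in capitals with 3 bases of each neighbouring exon, since it is the one alternative internal exon of these genes whose use was called different.

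Myom1 exon 18: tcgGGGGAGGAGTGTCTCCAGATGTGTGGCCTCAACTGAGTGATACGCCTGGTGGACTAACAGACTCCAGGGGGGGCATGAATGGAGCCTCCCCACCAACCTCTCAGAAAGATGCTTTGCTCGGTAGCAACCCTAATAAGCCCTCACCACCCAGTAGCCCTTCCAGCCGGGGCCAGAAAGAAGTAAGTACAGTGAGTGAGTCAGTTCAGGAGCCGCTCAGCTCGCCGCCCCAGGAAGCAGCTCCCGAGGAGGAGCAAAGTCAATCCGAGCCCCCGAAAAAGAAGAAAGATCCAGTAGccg

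Apart from exon 18, most Myom1 reads lay in models from start to stop codon or in single-exon models. Single-exon models held 85 reads (10.7%) and 131 (14.5%). Almost all reads, 98.9% in each library, ended in the last exon or within 100 bases of it. The gene Myl12a overlaps the Myom1 locus on the opposite strand and had 488 and 630 reads. How the counting used strand is not given in the sources used here, so reads of overlapping genes could be exchanged.

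Myom2 lies on the plus strand at chr8:15057653-15133541 and was the most uniform of the genes. Its annotated transcript of 37 exons, Myom2-201, held 675 of 1148 reads (58.8%) and 910 of 1411 (64.5%), and no internal exon was alternative. Its variation lay in the first exon, upstream of the coding start in exon 2. Of the reads that hold exon 2 at its annotated borders behind an upstream exon, 721 of 818 (88.1%, 85.7% to 90.2%) and 967 of 1052 (91.9%, 90.1% to 93.4%) began with the exon at chr8:15057653-15057739. The exon at chr8:15060190-15060422 came first in 84 reads (10.3%, 8.37% to 12.5%) and in 65 (6.18%, 4.88% to 7.80%), and that at chr8:15058746-15059113 in 12 and 20. All 3 first exons stand in the annotation, and the start codon of Myom2-201, in exon 2, lies downstream of each. The intervals of the second exon lay apart, but first exons were not tested across all genes. At the other end, 62 and 120 reads lay in single-exon models within the last exon, which ended at chr8:15133320 in replicate 1 and chr8:15133348 in replicate 2, short of the annotated end at 15133541.

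Myom3, at chr4:135759715-135815564 on the plus strand, had 34 and 31 reads in 26 exon structures. The annotated Myom3-201 held 8 and 6 of them. Single-exon reads were 3 and 9, and all but 1 read over both libraries ended at the annotated end. No exon of Myom3 was alternative at this depth.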

How the data were processed

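Long-read RNA-seq of mouse gastrocnemius was measured in 2 libraries of 1 group. As deposited by the authors, the values are raw read counts per transcript model, with exon coordinates and model lengths, on build mm10 with GENCODE M21, per the deposited notes; the models carry TALON's classes, per the file headers. Neither aligner and platform nor read filters and strand use are given in the sources used here. Model ends are those of the deposited model, not of each read.

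The reads of a gene over all its models, per megaread of the library (1349298 and 1359923 reads), gave its CPM. Log2 ratios used CPM + 1, replicate 2 over replicate 1. Genes with at least 10 reads summed were tested by two-sided Fisher's exact test with Benjamini-Hochberg adjustment over all 9341 of them at 0.05. Internal exons (held or spanned) and terminal exons (by acceptor) were tested the same way over all genes, given 20 or more informative reads in both libraries and 5% to 95% pooled use. Shares carry 95% Wilson intervals, and a count of 0 allows 3 counts. No p was given for family shares, although one had been planned. The longest coding transcript of each gene served as reference for exon numbers and reach, and exon sequences came from the GENCODE M21 transcripts. Alternatives were other scalings, minimums and model classes and edgeR's exact test (dispersion 0.01). The 3 kinds of test were first tested on simulated data.

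All 8 genes, every alternative exon, and of each partner list up to 3 most abundant genes and up to 3 with the largest called ratio were named. A gene of the titin and M-band lists is not reported here and was left out of their counts and medians. The genes and lists were chosen with earlier results of these data known. Tools were python 3.11.15, scipy 1.17.1, pandas 2.3.3, R 4.3.3 and edgeR 4.0.16.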

Additional observations from a re-analysis of the deposited data

Results flagged for a closer look

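Reads in unannotated models on the strand opposite to these genes lay outside every comparison above, and were flagged because they exceeded the 3 counts that a count of 0 allows in both libraries. Over Ttn there were 27 such reads in replicate 1 and 71 in replicate 2, of which 25 and 68 were in single-exon models. Over Neb there were 27 and 51, of which 24 and 42 were single-exon, and over Myom1 10 and 13, of which 9 and 13 were single-exon. Their origin was not tested.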

How the results depend on the processing

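Of 45 settings of the main results, 30 kept the count or value close to the reported one. The number of the 7 genes called fell from 2 to 1 with annotated models alone and with no minimum of reads, and to 0 by edgeR's exact test, where all genes called fell from 730 to 173. Called alternative exons rose from 8 to 23 when models with an unannotated splice site were left out, and alternative exons in these genes fell from 18 to 11 without single-read models. The 1 called terminal exon became 0 without single-read models and without incomplete splice matches, since Ttn no longer met the test's limits. The mean Myom2 share of myomesin reads went from 59.1% to 62.0% with annotated models, 60.7% with spliced models and 61.7% per transcript length. The mean Neb share went from 20.96% to 6.10% per length, and to 0.773% with annotated models, which held 3 Neb reads. Reads in models from start to stop codon made up 51.8% of all reads of these genes. That share went to 54.6% without single-read models and 56.7% with spliced models. Without each replicate this was 51.6% to 52.0%, and their summed level 2482 to 2844 CPM. Results that turned direction were not called: Myom3 (log2 ratio 0.24) and Neb exon 151 (8.43 points) without single-read models, and the Neb terminal exon (-6.33 points) without incomplete splice matches. Where no cause is given, it was not tested. No paired analysis was possible because the 2 libraries form 1 group. Leaving out a replicate leaves no second library to compare. Depth limits Obsl1, Myom3 and the middle of Ttn and Neb.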
